A study of Mus musculus with 12 samples.

Results

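The 8 genes described here encode 1 vasoactive peptide and 7 receptors for vasoactive peptides and proteases: Edn1, Ednra, Ednrb, Agtr1a, Bdkrb1, Bdkrb2, Npr3 and F2r. They were looked up by symbol among the 52636 genes of the deposited tables, and all 8 were found. The set was chosen with earlier results of these data known. None of the 8 is an adrenergic receptor. The adrenergic receptors are described further down as 1 of the lists of related genes.

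Endothelin-1, the product of Edn1, is a peptide that constricts smooth muscle through the type A receptor (Ednra) and also signals through the type B receptor (Ednrb), which clears the peptide as well. Angiotensin II acts mainly through the type 1 receptor (Agtr1a), and bradykinin and its shorter derivatives through the B2 receptor (Bdkrb2) and the inducible B1 receptor (Bdkrb1). Npr3 binds natriuretic peptides and removes them from the surroundings of the cell, and F2r is the main receptor through which thrombin acts on mesenchymal cells. In lung these systems set the tone of airways and vessels, and endothelin-1, angiotensin II and thrombin are known to stimulate fibroblasts.

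RNA was measured by bulk RNA-seq in 12 libraries that form 4 groups of 3. Smooth muscle cells (SMCs) and PDGFR-β+ cells of the lung, the latter a mixture of fibroblasts and pericytes, were each given either scrambled control RNA (Scr) or small interfering RNA against the transcription factor Klf4 (siKlf4). Both sets are labeled C57BL/6, with genotype WT for Scr and Klf4 KD for siKlf4. The SMCs were bought from CellBiologics, are called tracheal in the source label and airway in the title, and have no stated age. The PDGFR-β+ cells are from mice 12 weeks old. According to the methods they were sorted by the fluorescence of a reporter that Pdgfrb-CreERT2 switches on after tamoxifen, which the labels do not mention. As the methods describe the knockdown, all 4 groups were transfected (50 nM RNA for 6 h) and then kept in the same SMC medium for 72 h. The labels do not say which libraries came from separate animals or lots of cells, so p-values measure the spread between 3 libraries that the methods call independent experiments.

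Values are transcripts per 1000000 (TPM), a measure that corrects for transcript length and fixes the sum of every library. That sum was 1000000 in all 12 libraries, and 20590 to 21780 genes per library were above 0 TPM. TPM holds no record of depth, so the counting error is unknown. Klf4 itself was at 89.6 to 96.3 TPM in Scr SMCs and 16.3 to 26.5 TPM under siKlf4, which left 21.9% of the Scr mean. In PDGFR-β+ cells it went from 134 to 146 TPM to 12.3 to 13.8 TPM, or 9.16% of the Scr mean. In both cell types 7 of 8 smooth muscle markers and all 7 fibroblast and pericyte markers averaged at least 1 TPM, and the SMC libraries held Pdgfra at 314 to 511 TPM with Myocd at 0.031 to 0.213 TPM. The defining endothelial markers Cdh5 and Pecam1 did not exceed 0.414 TPM in any library, Tie1 was listed at 0 in all 12, and no epithelial marker averaged 1 TPM.

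On GRCm38 (GENCODE M21) Ednra lies on the reverse strand at chr8:77663031-77724464, Ednrb on the reverse strand at chr14:103814625-103844402 and Npr3 on the reverse strand at chr15:11839896-11907287. Chromosome 13 holds 3 of the genes: Agtr1a (chr13:30336441-30382867) and Edn1 (chr13:42301476-42307990) on the forward strand and F2r (chr13:95601803-95618487) on the reverse strand. The genes of the bradykinin receptors are neighbors on the forward strand of chromosome 12, where Bdkrb2 (chr12:105563226-105595237) ends 7847 bases before Bdkrb1 (chr12:105603085-105605428) starts. No stretch of 100 bases, the read length, in the longest transcript of any of the 8 genes occurred in a transcript of another gene, on either strand. This includes Agtr1a and its paralog Agtr1b.

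RefSeq promoter windows (GRCm38.p6, 250 bases before to 50 after the start of transcription) were held for 6 of the 8 genes, all but Agtr1a and Bdkrb1. KLF proteins are zinc finger factors known to bind CACCC boxes, so the letters CACCC were searched on both strands (GGGTG on the printed strand is the same motif read from the other side). The motif was present in 5 of the 6 windows. It is common, being found in 57.5% of all 32851 windows in the RefSeq table. Edn1, Ednrb and F2r each held 3 matches, a number reached by 9.35% of all windows. Bdkrb2 and Npr3 held 1 each, and Ednra held none. In SMCs the windows cannot be fully sorted by the effect of siKlf4: Agtr1a and Bdkrb1, which passed there, have no window. Of the genes with a window, F2r passed in both cell types, Ednra in SMCs, and Edn1 and Ednrb in PDGFR-β+ cells. Npr3 passed in neither, and Bdkrb2 was not tested. The GC box CCGCCC, searched on both strands and present in 35.7% of all windows, occurred in F2r alone of the 6, once. These matches are a description of letters in these windows, and binding of KLF4 to them or a relation to the changes with siKlf4 was not tested. The windows of the 3 genes with 3 matches, and that of Ednra, the window with none, are printed 5′ to 3′ on the strand of the gene with CACCC or GGGTG in capitals. They lie at chr13:42301226-42301525 (Edn1, forward), chr14:103843652-103843951 (Ednrb, reverse, inside the longer gene of the GENCODE annotation), chr13:95618417-95618716 (F2r, reverse) and chr8:77724403-77724702 (Ednra, reverse).
Edn1: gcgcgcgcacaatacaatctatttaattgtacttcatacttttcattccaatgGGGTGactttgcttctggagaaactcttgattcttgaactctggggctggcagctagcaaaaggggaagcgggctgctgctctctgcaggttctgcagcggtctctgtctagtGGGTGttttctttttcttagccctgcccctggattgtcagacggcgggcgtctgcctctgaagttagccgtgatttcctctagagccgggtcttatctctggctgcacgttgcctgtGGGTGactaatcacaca
Ednrb: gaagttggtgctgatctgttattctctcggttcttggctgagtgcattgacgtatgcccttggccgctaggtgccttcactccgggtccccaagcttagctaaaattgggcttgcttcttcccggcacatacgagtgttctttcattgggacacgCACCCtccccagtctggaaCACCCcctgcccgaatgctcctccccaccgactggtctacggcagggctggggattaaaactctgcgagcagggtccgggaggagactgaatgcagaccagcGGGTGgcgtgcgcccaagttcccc
F2r: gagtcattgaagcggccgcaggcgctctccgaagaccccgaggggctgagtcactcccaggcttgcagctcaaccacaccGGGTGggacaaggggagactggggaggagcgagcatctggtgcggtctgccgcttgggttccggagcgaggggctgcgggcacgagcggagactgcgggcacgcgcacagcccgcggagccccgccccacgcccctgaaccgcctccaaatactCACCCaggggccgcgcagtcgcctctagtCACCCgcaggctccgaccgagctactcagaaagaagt
Ednra: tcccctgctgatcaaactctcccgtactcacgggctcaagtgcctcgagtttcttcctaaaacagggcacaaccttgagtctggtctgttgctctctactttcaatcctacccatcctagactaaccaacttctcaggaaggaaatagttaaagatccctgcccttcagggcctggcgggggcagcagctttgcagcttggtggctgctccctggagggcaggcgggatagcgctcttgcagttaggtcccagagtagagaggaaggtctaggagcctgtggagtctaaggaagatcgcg

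Each cell type was tested on log2(TPM + 1) with limma over all genes that averaged 1 TPM or more, and p-values were adjusted over all of them with the Benjamini-Hochberg method. Fold changes on this scale understate the change of low genes. In SMCs 7 of the 8 genes were tested and 4 passed an adjusted p of 0.05: Agtr1a, Bdkrb1 and Ednra fell and F2r rose. Of all 13709 genes tested in SMCs, 28.5% passed, 15.6% as higher and 12.9% as lower. In PDGFR-β+ cells 6 of the 8 were tested and 3 passed, Ednrb, Edn1 and F2r, all of which rose. There 40.6% of 13694 genes passed, 25.3% as higher and 15.3% as lower. Read against these shares, the count in PDGFR-β+ cells was near that of all genes and the count in SMCs was above it. Neither was tested for the set, and every SMC call but that of Agtr1a was lost in some of the fits described below. Since whole cultures were sequenced, fewer cells of a kind and less RNA per cell cannot be told apart.

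**Figure D1:**
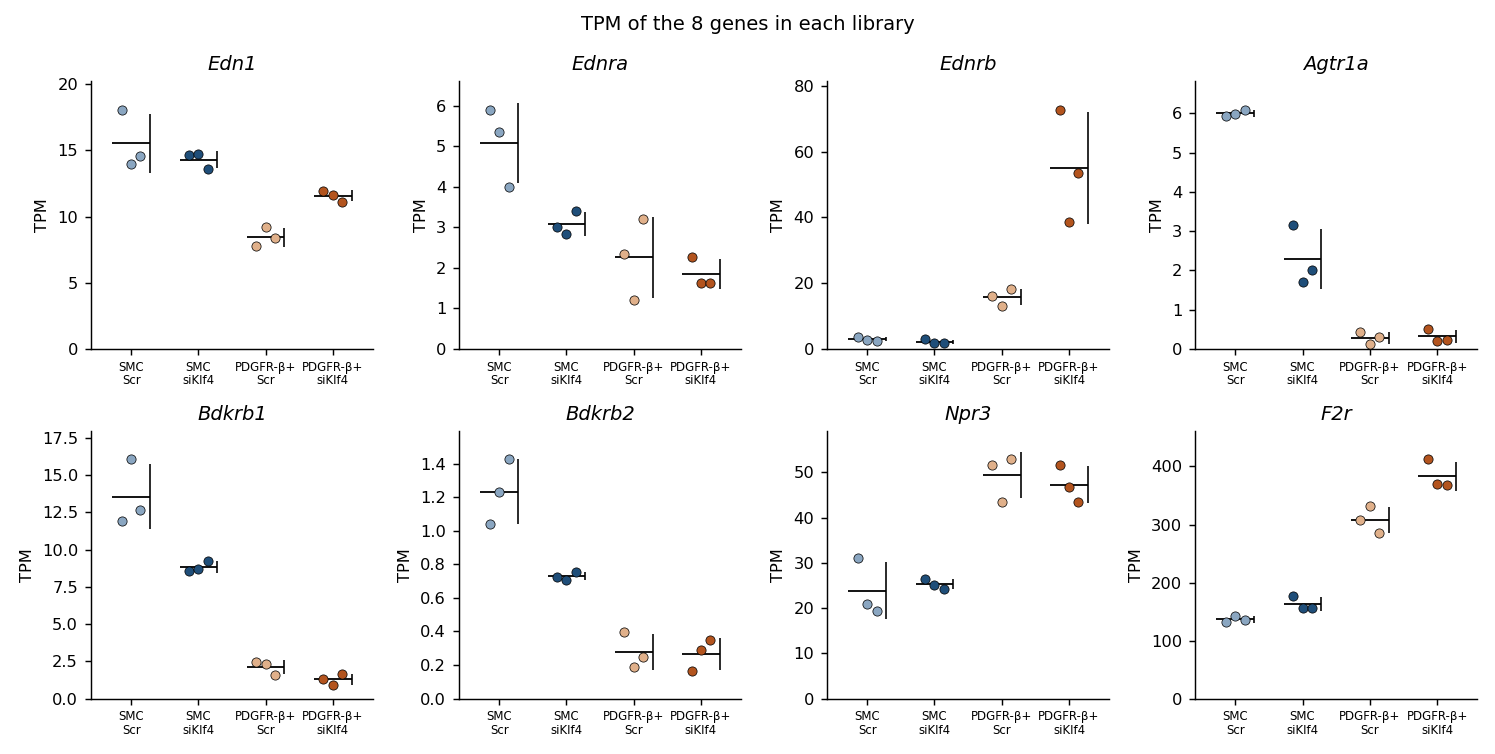
TPM (vertical axes, linear and starting at 0) of each of the 8 genes in the 12 libraries. Points are libraries, horizontal lines are group means and vertical lines are the mean ± 1 SD (n = 3). Ednrb reached 38.7 to 72.8 TPM in siKlf4 PDGFR-β+ cells against 13.2 to 18.1 TPM in Scr, and Agtr1a fell from 5.93 to 6.10 TPM in Scr SMCs to 1.72 to 3.15 TPM.

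The ligand Edn1 rose in PDGFR-β+ cells and did not pass in SMCs. The Scr PDGFR-β+ libraries held 7.75, 9.20 and 8.35 TPM and the siKlf4 libraries 12.0, 11.6 and 11.1 TPM, so that every siKlf4 library was above every Scr library. The log2 fold change was 0.42 (SE 0.0976, adjusted p = 0.0123), a factor of 1.33. In SMCs the Scr libraries held 18.1, 14.0 and 14.6 TPM and the siKlf4 libraries 14.7, 14.7 and 13.6 TPM, which overlap. The difference there was -0.10 (95% interval -0.37 to 0.17, adjusted p = 0.530). Edn1 is best known as a product of endothelium. The summed TPM of the 7 endothelial markers was 1.62 to 4.08 in Scr SMCs, 3.87 to 4.42 in siKlf4 SMCs, 15.3 to 18.5 in Scr PDGFR-β+ cells and 14.1 to 16.2 in siKlf4 PDGFR-β+ cells. Of the 7, 1 averaged 1 TPM or more in SMCs (Kdr) and 2 in PDGFR-β+ cells (Kdr and Tek), and Cdh5 was at 0 in all siKlf4 PDGFR-β+ libraries. The markers went different ways with siKlf4. In PDGFR-β+ cells Tek was higher (1.17 to 1.42 TPM to 2.06 to 3.14 TPM) and Kdr lower (13.7 to 17.1 TPM to 11.8 to 12.9 TPM), both without overlap. In SMCs Kdr was higher (0.502 to 0.798 TPM to 2.69 to 3.12 TPM).

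The largest change of the 8 genes was that of the type B endothelin receptor Ednrb in PDGFR-β+ cells. Its level was 16.1, 13.2 and 18.1 TPM in the Scr libraries and 72.8, 38.7 and 53.6 TPM in the siKlf4 libraries. The lowest siKlf4 library stood well above the highest Scr library, and the siKlf4 libraries also spread more widely among themselves. The group means were 15.8 ± 2.50 and 55.0 ± 17.1 TPM (SD, n = 3), a ratio of 3.48. The log2 fold change was 1.70 (SE 0.221, adjusted p = 9.7e-04), and it ranged from 1.48 to 1.93 when each library was left out in turn. In SMCs Ednrb was low in both groups, at 3.53, 2.79 and 2.50 TPM under Scr and 2.89, 1.81 and 1.83 TPM under siKlf4. These values overlap, and the difference of -0.32 (95% interval -0.75 to 0.12) had an adjusted p of 0.234. Ednrb is also known from glia of peripheral nerve. Of 4 glial markers 2 averaged 1 TPM or more in PDGFR-β+ cells, their defining markers Sox10 and Foxd3 were listed at 0 in all 6 libraries, and the sum of the 4 went from 6.38 to 8.67 TPM under Scr to 1.44 to 2.57 TPM under siKlf4.

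The type A endothelin receptor Ednra passed in SMCs and not in PDGFR-β+ cells, though its effect was not shown to differ between them (interaction below). In SMCs it was at 5.90, 5.34 and 3.99 TPM under Scr and 3.02, 2.84 and 3.40 TPM under siKlf4. Each siKlf4 library was below each Scr library, but the gap between the nearest of them was small. Ednra fell by 0.56 on the log2 scale (SE 0.155, adjusted p = 0.0345). This call depended on the libraries used: the adjusted p was 0.0671 to 0.105 in 5 of the 6 fits that left out 1 library, all but that without Scr replicate 3, and over 9 alternatives it ran from 0.0280 to 0.186, past the threshold in 4. In PDGFR-β+ cells the levels were 2.35, 1.22 and 3.21 TPM under Scr and 2.28, 1.63 and 1.64 TPM under siKlf4. There the groups overlap and the difference was -0.15 (95% interval -0.73 to 0.42, adjusted p = 0.653).

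Set against each other, the 2 endothelin receptors were in opposite proportion in the 2 cell types. Ednra made up 63.3% ± 2.22 (SD, n = 3) of the summed TPM of the pair in Scr SMCs and 59.1% ± 7.17 in siKlf4 SMCs. In Scr PDGFR-β+ cells its share was 12.1% ± 3.34, and with siKlf4 it was 3.35% ± 0.604. The shares in PDGFR-β+ cells did not overlap (8.45 to 15.0% against 2.96 to 4.04%), for which the exact permutation p is 0.1, the smallest that 3 libraries against 3 allow. The summed level of the pair in these cells went from 14.4 to 21.3 TPM to 40.3 to 75.1 TPM. In SMCs it went from 6.49 to 9.43 TPM to 4.65 to 5.91 TPM, also without overlap.

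**Figure D2:**
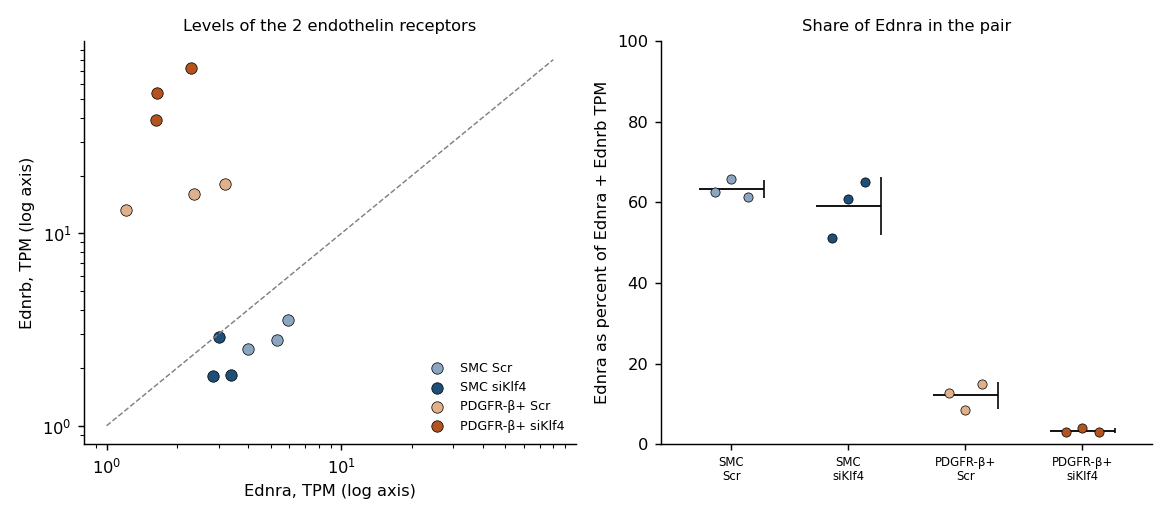
Left, Ednrb TPM (vertical, log axis) against Ednra TPM (horizontal, log axis) in each of the 12 libraries, with a dashed line where both are equal. Right, Ednra as percent of the summed TPM of both receptors in each library, with group means and ± 1 SD (n = 3). All 6 SMC libraries lie below the line of equal levels, and the siKlf4 PDGFR-β+ libraries have the lowest Ednra shares, 2.96 to 4.04%.

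Agtr1a, the receptor for angiotensin II, showed the largest fall among the 8 genes in SMCs. Scr libraries held 5.93, 5.98 and 6.10 TPM and siKlf4 libraries 3.15, 1.72 and 2.00 TPM. The Scr libraries lay close together, and all siKlf4 libraries were far below them. Agtr1a fell by 1.11 on the log2 scale (SE 0.175, adjusted p = 0.00525), to 38.2% of the Scr mean in TPM. The fall stayed past the threshold in all 6 fits without 1 library (adjusted p 0.00399 to 0.0241) and in the 9 alternatives that tested it. In PDGFR-β+ cells Agtr1a was near the bottom of the range, at 0.428, 0.128 and 0.300 TPM under Scr and 0.512, 0.213 and 0.232 TPM under siKlf4, and was not tested.

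Of the bradykinin receptors, Bdkrb1 was the more abundant and Bdkrb2 stayed close to the limit of 1 TPM. Bdkrb1 in SMCs was at 11.9, 16.0 and 12.7 TPM under Scr and 8.53, 8.67 and 9.25 TPM under siKlf4, without overlap. It fell by 0.56 on the log2 scale (SE 0.125, adjusted p = 0.0170), with an adjusted p of 0.0580 when siKlf4 replicate 2 was left out and 0.0115 to 0.0596 over 10 alternatives. In PDGFR-β+ cells Bdkrb1 was at 2.48, 2.31 and 1.60 TPM under Scr and 1.35, 0.898 and 1.66 TPM under siKlf4. These values overlap by 1 library, and the difference of -0.45 (95% interval -0.89 to 9.2e-04) had an adjusted p of 0.10 (0.0412 to 0.187 over 7 alternatives). Bdkrb2 in SMCs was at 1.04, 1.23 and 1.42 TPM under Scr and 0.730, 0.709 and 0.753 TPM under siKlf4. All 3 siKlf4 libraries were lower, by 0.36 in mean log2(TPM + 1), but the mean over the 6 libraries was 0.981 TPM and the gene was not tested. In the 3 alternatives and the 3 fits without 1 library that did test it, its adjusted p was 0.0957 to 0.237. In PDGFR-β+ cells Bdkrb2 was at 0.162 to 0.399 TPM in all 6 libraries. Bdkrb1 made up 91.6% ± 1.53 of the pair in Scr SMCs and 92.4% ± 0.180 with siKlf4 (SD, n = 3). Since Bdkrb1 makes up most of the sum, this share says little about Bdkrb2, whose fall did not pass in any fit that tested it.

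Npr3, the clearance receptor for natriuretic peptides, passed in neither cell type. SMC libraries held 31.0, 21.0 and 19.4 TPM under Scr and 26.5, 25.1 and 24.3 TPM under siKlf4. PDGFR-β+ libraries held 51.7, 43.5 and 52.8 TPM under Scr and 51.6, 46.8 and 43.4 TPM under siKlf4. The groups overlap in both. The differences were 0.11 (95% interval -0.28 to 0.51, adjusted p = 0.642) in SMCs and -0.06 (-0.30 to 0.18, adjusted p = 0.674) in PDGFR-β+ cells. In SMCs the unnumbered Scr library stood above the other two, and without it the difference was 0.31 with an adjusted p of 0.0419.

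F2r, the thrombin receptor, was the most abundant of the 8 genes in all 4 groups and was higher with siKlf4 in both cell types, by small factors. In PDGFR-β+ cells the Scr libraries held 307, 331 and 285 TPM and the siKlf4 libraries 412, 370 and 368 TPM. The groups do not overlap, and the log2 fold change was 0.32 (SE 0.0816, adjusted p = 0.0181), a factor of 1.25. The call was lost narrowly when Scr replicate 1 or siKlf4 replicate 1 was left out (adjusted p = 0.0527 and 0.0551) and under median-ratio scaling, which lowers the change to 0.21 (adjusted p = 0.0529, the highest of 8 alternatives that began at 0.00472). In SMCs F2r was at 131, 142 and 136 TPM under Scr and 177, 156 and 156 TPM under siKlf4, again without overlap. There it rose by 0.25 on the log2 scale (SE 0.0749, adjusted p = 0.0443), and the adjusted p was above 0.05 in all 6 fits without 1 library (0.0740 to 0.106) and in 6 of 10 alternatives (0.0286 to 0.107 over the 10).

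**Figure D3:**
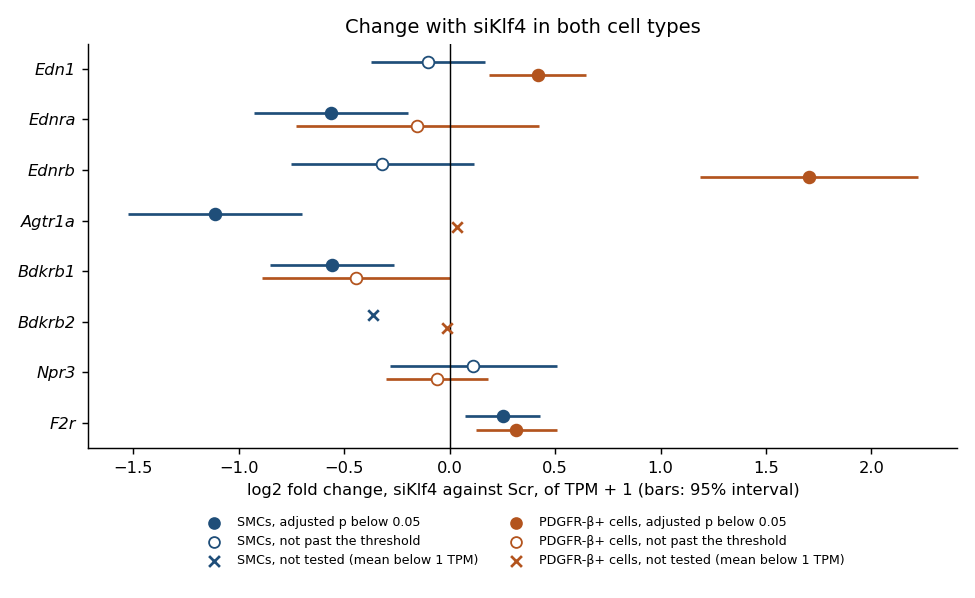
Log2 fold change of TPM + 1, siKlf4 against Scr (horizontal axis), for the 8 genes in SMCs (blue) and PDGFR-β+ cells (orange). Bars are 95% intervals, filled circles have an adjusted p below 0.05 by limma, and crosses mark genes with a mean below 1 TPM, which were not tested. Ednrb at 1.70 in PDGFR-β+ cells and Agtr1a at -1.11 in SMCs lie farthest from 0.

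Counted over the genes tested, groups without overlap were found for 4 of the 7 in SMCs and 3 of the 6 in PDGFR-β+ cells. The share among all genes tested was 47.1% in SMCs and 53.8% in PDGFR-β+ cells. The median log2 fold change of the tested genes was -0.32 in SMCs and 0.13 in PDGFR-β+ cells, beside 0.02 and 0.10 for all genes tested. Median-ratio scaling moved the median of all genes in PDGFR-β+ cells by -0.10 and the share of higher among all passing genes from 62.3% to 47.0%, and quantile normalization moved that share to 49.7%. Ednrb and Edn1 stayed past the threshold under both. The summed smooth muscle markers moved with siKlf4 as well, from 1495 to 2284 TPM to 3411 to 4174 TPM in SMCs and from 5551 to 6408 TPM to 4708 to 5003 TPM in PDGFR-β+ cells. Acta2 and Tagln make up most of that sum, and in PDGFR-β+ cells Myh11 (18.8 to 23.0 TPM to 31.2 to 36.7 TPM), Smtn (56.3 to 70.7 TPM to 72.04 to 81.35 TPM) and Lmod1 (54.9 to 58.2 TPM to 82.1 to 87.4 TPM) were higher with siKlf4, without overlap. The 7 fibroblast and pericyte markers summed to 1940 to 2310 TPM in Scr SMCs, 1779 to 2056 TPM in siKlf4 SMCs, 2453 to 2870 TPM in Scr PDGFR-β+ cells and 1634 to 2207 TPM in siKlf4 PDGFR-β+ cells. Among them the pericyte marker Cspg4 went from 20.6 to 35.1 TPM to 4.81 to 6.97 TPM in PDGFR-β+ cells, while Pdgfra overlapped (151 to 180 TPM and 169 to 199 TPM). Rgs5 (1.74 to 2.84 TPM and 1.71 to 2.17 TPM), Notch3 (7.11 to 8.62 TPM and 6.53 to 10.1 TPM) and Dcn overlapped there as well. Col1a1 (1783 to 2103 TPM to 1105 to 1534 TPM) and Pdgfrb (423 to 474 TPM to 304 to 397 TPM) were lower without overlap. The mesothelial marker Msln went from 15.2 to 24.2 TPM to 5.95 to 8.59 TPM in SMCs and from 7.29 to 9.34 TPM to 0.502 to 0.970 TPM in PDGFR-β+ cells. The 6 macrophage markers summed to 28.7 to 29.9 TPM in Scr and 18.7 to 22.8 TPM in siKlf4 PDGFR-β+ cells. Lyz2 made up most of that difference (17.3 to 20.3 TPM to 9.49 to 13.6 TPM), and Cd68 was not lower with siKlf4 (6.04 to 8.69 TPM to 8.20 to 9.62 TPM). The part of such shifts in the changes of the 8 genes was not tested.

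The difference between the siKlf4 effects in SMCs and PDGFR-β+ cells was tested as an interaction over the 12 libraries, which was possible for 6 of the 8 genes. It passed for Ednrb and Edn1. The log2 fold change of Ednrb in SMCs minus that in PDGFR-β+ cells was -2.02 (SE 0.305, adjusted p = 4.9e-04) and that of Edn1 was -0.52 (SE 0.146, adjusted p = 0.0180). Of all 13032 genes tested for the interaction, 33.0% passed, 18.5% with the lower value in SMCs and 14.5% with the higher. The call for Edn1 was lost in 2 of 10 alternatives, over which its adjusted p ran from 0.00820 to 0.0687. The interaction was -0.41 for Ednra (95% interval -1.08 to 0.26, adjusted p = 0.327) and -0.11 for Bdkrb1 (-0.61 to 0.38, adjusted p = 0.739), so the falls of these receptors in SMCs were not shown to be particular to SMCs. For F2r it was -0.07 (-0.31 to 0.18, adjusted p = 0.686) and for Npr3 0.17 (-0.29 to 0.63, adjusted p = 0.561). Agtr1a and Bdkrb2 were too low in PDGFR-β+ cells for this test. With no filter on low values Agtr1a had an interaction of -1.15 and an adjusted p of 0.0108.

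At baseline, in the Scr libraries alone, each of the 8 genes had levels that did not overlap between the cell types. Both tables are scaled per library, but the source of the cells, their culture before transfection and the table all go with the cell type and cannot be told apart from it. Bdkrb1, Ednra and Edn1 were higher in SMCs, by 2.22, 0.94 and 0.80 on the log2 scale (adjusted p = 5.9e-07, 0.00349 and 5.5e-05). Ednrb, F2r and Npr3 were higher in PDGFR-β+ cells. The SMC level minus the PDGFR-β+ level was -2.09, -1.17 and -1.05 on that scale (adjusted p = 1.0e-05, 3.5e-07 and 1.1e-04). All 6 genes tested thus passed. Of all 13032 genes, 51.4% passed (25.5% higher and 25.9% lower in SMCs) and 57.5% had groups without overlap. Agtr1a averaged 6.00 TPM in Scr SMCs and 0.285 TPM in Scr PDGFR-β+ cells, a ratio of 21.0, and Bdkrb2 averaged 1.23 and 0.279 TPM, a ratio of 4.41. Both were below the limit for this test.

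The order of the levels, which TPM allows since it is divided by length, began with F2r and Npr3 in Scr SMCs (136 ± 5.64 and 23.8 ± 6.30 TPM, SD, n = 3). Edn1 (15.5 ± 2.23) and Bdkrb1 (13.5 ± 2.20) followed with values that overlap, and then came Agtr1a (6.00 ± 0.0841), Ednra (5.08 ± 0.983), Ednrb (2.94 ± 0.530) and Bdkrb2 (1.23 ± 0.193), none of which overlapped with the next. With siKlf4, Agtr1a came to lie between Ednra and Ednrb (3.09, 2.29 and 2.18 TPM on average), and neighbors in this trio overlapped. In Scr PDGFR-β+ cells the order was F2r (308 ± 23.1), Npr3 (49.4 ± 5.11), Ednrb (15.8 ± 2.50) and Edn1 (8.43 ± 0.731), each apart from the next. Ednra and Bdkrb1 (2.26 and 2.13 TPM) overlapped, as did Agtr1a and Bdkrb2 (0.285 and 0.279 TPM). With siKlf4 the mean of Ednrb (55.0 TPM) came above that of Npr3 (47.2 TPM), with overlapping values, and the rest of the order was as in Scr.

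The related genes were taken as 103 symbols in 9 lists, and all were found in the tables. In SMCs 64 were tested, 10 rose and 15 fell. In PDGFR-β+ cells 63 were tested, 19 rose and 7 fell. Of all genes tested, 28.5% passed in SMCs and 40.6% in PDGFR-β+ cells (25.3% higher and 15.3% lower). The median log2 fold change was -0.04 and 0.18, beside 0.02 and 0.10 for all genes. Under median-ratio scaling the counts were 9 and 16 in SMCs and 18 and 12 in PDGFR-β+ cells, and under quantile normalization 10 and 15 in SMCs and 18 and 10 in PDGFR-β+ cells. Of the 59 tested for the interaction, 19 passed, 16 of them with the lower value in SMCs, beside 33.0% of all genes tested (18.5% with the lower value). The number of passing genes in PDGFR-β+ cells and in the interaction was thus near the share of all genes.

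**Figure D4:**
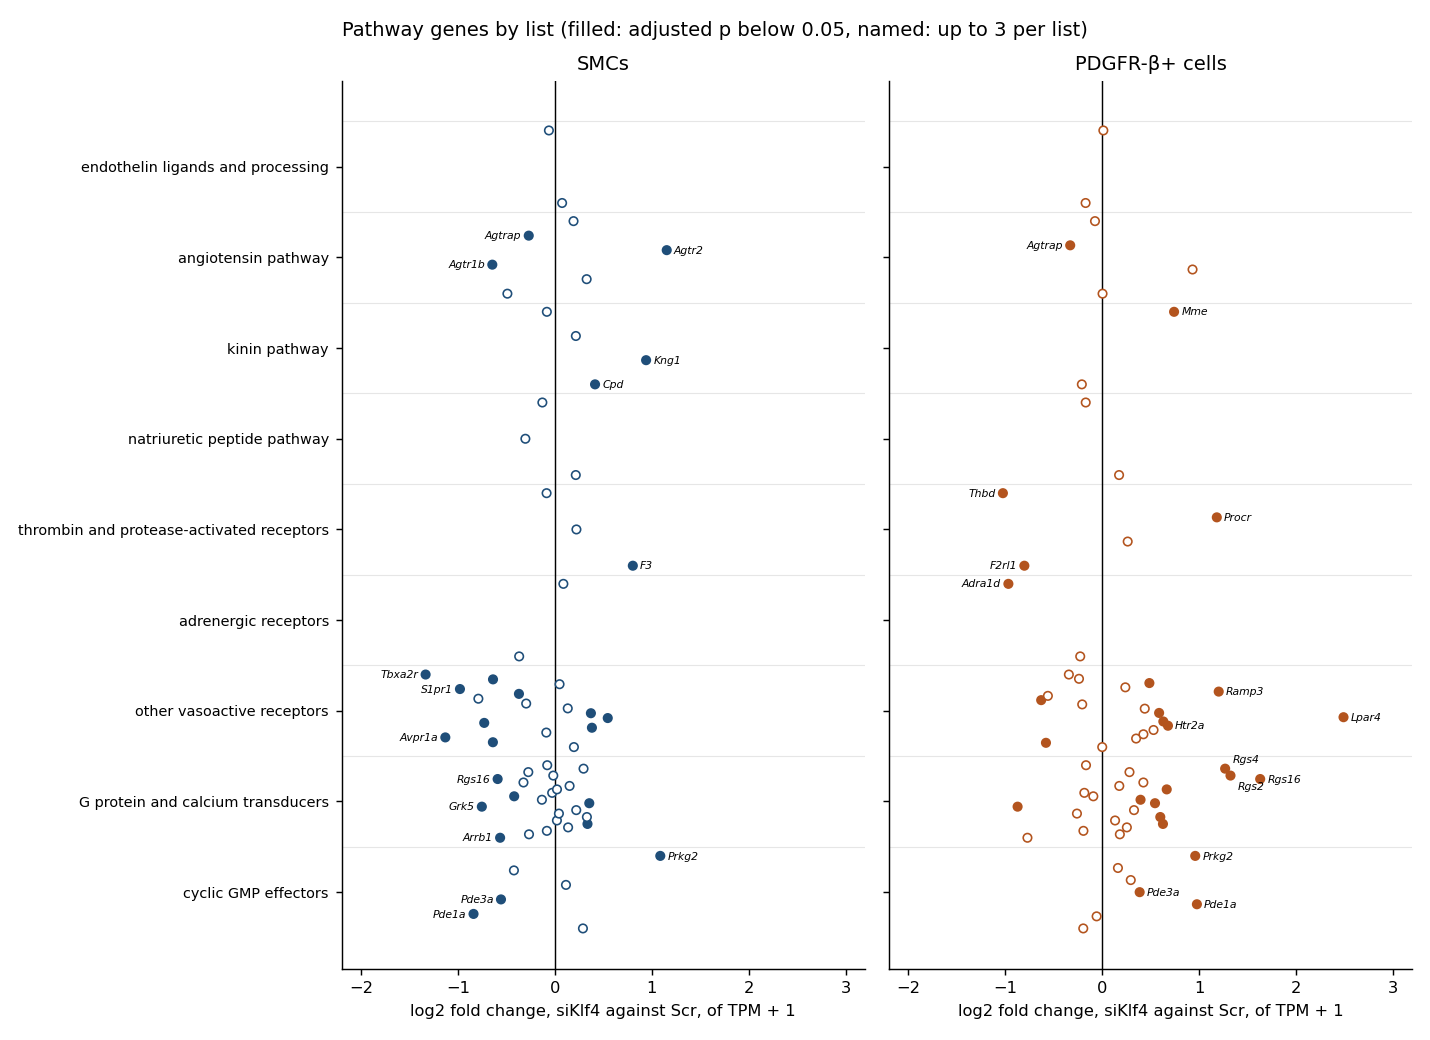
Log2 fold change of TPM + 1, siKlf4 against Scr (horizontal axes), of the tested genes of 9 lists in SMCs (left) and PDGFR-β+ cells (right). Each point is a gene, filled where the adjusted p by limma is below 0.05, and up to 3 passing genes per list are named. The receptors Tbxa2r, Avpr1a and S1pr1 lie at -1.33, -1.13 and -0.98 in SMCs, and Lpar4 at 2.49 in PDGFR-β+ cells.

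Around endothelin, the converting enzymes Ece1 and Ece2, which cut the precursor to the active peptide, were the 2 of 4 genes tested, and limma called neither in either cell type, also at an unadjusted p of 0.05. Ece1 was at 129 to 143 TPM in Scr SMCs and 172 to 200 TPM in Scr PDGFR-β+ cells. The other endothelin peptides Edn2 and Edn3 were at or near 0 TPM.

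Of the angiotensin genes, 1 of 6 tested rose and 2 fell in SMCs, and 1 of 4 fell in PDGFR-β+ cells while the other 3 did not pass. The share of all genes tested that passed was 28.5% in SMCs and 40.6% in PDGFR-β+ cells. Agtr2, the type 2 receptor whose signaling often opposes that of the type 1 receptor, rose in SMCs from 26.5 to 44.4 TPM to 61.8 to 96.7 TPM (log2 fold change 1.15, adjusted p = 0.0130). In PDGFR-β+ cells it was at 9.22 to 21.9 TPM under Scr and 23.9 to 43.3 TPM under siKlf4 (0.93, adjusted p = 0.0556). Agtr1b, the paralog of Agtr1a, fell by 0.64 in SMCs (adjusted p = 0.0329), a call lost under quantile normalization (adjusted p = 0.0554). Agtrap, which promotes uptake of the type 1 receptor into the cell, fell in both cell types, by 0.27 in SMCs (adjusted p = 0.0264) and by 0.33 in PDGFR-β+ cells (adjusted p = 0.0258).

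Among the kinin genes, Kng1, which encodes the precursor of bradykinin, rose in SMCs from 2.53 to 4.97 TPM to 8.14 to 8.55 TPM (log2 fold change 0.94, adjusted p = 0.0140). The carboxypeptidase Cpd rose by 0.41 in SMCs (adjusted p = 0.00449), and its effect differed between the cell types by 0.63 (adjusted p = 0.00167). In PDGFR-β+ cells the peptidase Mme, which degrades bradykinin and natriuretic peptides, rose by 0.74 (adjusted p = 9.9e-04). The natriuretic peptide list had no passing gene by limma, out of 3 tested in SMCs (1 at an unadjusted p of 0.05) and 2 in PDGFR-β+ cells (0 at an unadjusted p of 0.05). Its receptor Npr2, which makes cyclic GMP, was at 82.9 to 131 TPM in all 12 libraries.

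In the thrombin list the changes in PDGFR-β+ cells went both ways. Thbd (thrombomodulin), which binds thrombin and turns it toward protein C, fell by 1.02 (adjusted p = 6.6e-04), and Procr, the protein C receptor, rose by 1.18 (adjusted p = 1.0e-04). The protease-activated receptor F2rl1, a relative of F2r, was at 2.39 to 3.11 TPM under Scr and 1.04 to 1.28 TPM under siKlf4 and fell by 0.80 (adjusted p = 0.00394). Both Thbd and Procr passed the interaction (0.94, adjusted p = 5.8e-04, and -0.96, adjusted p = 3.6e-04). In SMCs F3, the tissue factor that starts thrombin generation, rose from 285 to 400 TPM to 608 to 627 TPM (0.80, adjusted p = 0.00525), and the other 2 genes tested did not pass.

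Of 8 adrenergic receptors, the α1 receptors Adra1b and Adra1d, which couple to contraction, were tested in each cell type. Neither passed in SMCs by limma at an adjusted p of 0.05 and 1 of them, Adra1b, did at an unadjusted p of 0.05. There Adra1b was at 9.04 to 15.4 TPM and Adra1d at 9.16 to 14.3 TPM over all 6 libraries. In PDGFR-β+ cells Adra1d fell from 26.8 to 35.4 TPM to 12.6 to 20.3 TPM (log2 fold change -0.97, SE 0.179, adjusted p = 0.00452), without overlap. Adra1b was at 19.4 to 30.4 TPM there and did not pass (-0.23, adjusted p = 0.307). The effect on Adra1d differed between the cell types by 1.06 (adjusted p = 0.00961).

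Among 29 other vasoactive receptors and their partners, 3 of 16 tested rose and 7 fell in SMCs. Of all genes tested there, 15.6% passed as higher and 12.9% as lower, and the difference from these shares was not tested. The thromboxane receptor Tbxa2r fell by 1.33 (adjusted p = 0.00571), the vasopressin receptor Avpr1a by 1.13 (adjusted p = 0.00463) and the sphingosine-1-phosphate receptor S1pr1 by 0.98 (adjusted p = 0.00813), with groups that did not overlap. In PDGFR-β+ cells 6 of 18 rose and 2 fell, beside 25.3% higher and 15.3% lower among all genes tested there. The lysophosphatidic acid receptor Lpar4 rose there from 5.19 to 7.79 TPM to 38.1 to 42.2 TPM (2.49, adjusted p = 2.0e-05). Ramp3, which alters the ligand choice of the calcitonin receptor-like receptor, rose by 1.20 (adjusted p = 0.00108), and the serotonin receptor Htr2a by 0.68 (adjusted p = 0.00115). In SMCs Lpar4 and Htr2a also rose, by 0.55 and 0.38 (adjusted p = 0.0317 and 0.0220). Ramp3 fell in SMCs by 0.37 (adjusted p = 0.0235). Lpar4, Ramp3 and Avpr1a passed the interaction, at -1.94, -1.57 and -1.48 (adjusted p = 4.8e-05, 8.0e-05 and 0.00737).

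Downstream of these receptors, 22 of 23 G protein and calcium genes were tested in each cell type. In SMCs 2 rose and 4 fell, and 28.5% of all genes tested passed there, so the number that passed was near that share. Among those that fell were Grk5, Rgs16 and Arrb1, which dampen receptor signaling, by 0.75, 0.59 and 0.56 (adjusted p = 0.00163, 0.0375 and 0.0327). In PDGFR-β+ cells 8 rose and 1 fell, where 40.6% of all genes passed, so the number that passed was near that share. The 1 that fell there was Grk5, by 0.87 (adjusted p = 2.1e-04), so Grk5 fell in both cell types. The regulators of G protein signaling Rgs16, Rgs2 and Rgs4 rose by 1.63, 1.32 and 1.27 (adjusted p = 3.3e-04, 0.00133 and 0.00345). Rgs16 thus fell in SMCs (10.7 to 13.6 TPM to 6.26 to 9.87 TPM) and rose in PDGFR-β+ cells (0.551 to 1.04 TPM to 3.91 to 5.14 TPM), with an interaction of -2.22 (adjusted p = 5.0e-05). Of the cyclic GMP effectors, the phosphodiesterases Pde1a and Pde3a each moved in opposite directions in the 2 cell types. Pde1a fell by 0.84 in SMCs (adjusted p = 0.00685) and rose by 0.98 in PDGFR-β+ cells (adjusted p = 0.00186). Pde3a fell by 0.56 (adjusted p = 0.0407) and rose by 0.39 (adjusted p = 0.0301), though the rise was not past the threshold under median-ratio scaling or quantile normalization (adjusted p = 0.0632 and 0.0819). Both passed the interaction (adjusted p = 1.2e-04 and 0.00443). The kinase Prkg2 rose in both cell types, by 1.09 in SMCs (adjusted p = 0.00355) and 0.96 in PDGFR-β+ cells (adjusted p = 0.00780).

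The genes whose levels ran most closely with those of the 8 across the 12 libraries were named by Pearson correlation of log2(TPM + 1) among 13032 genes. The 12 points share 4 groups and 2 tables, so the values are a description with no test. Ednrb ran closest with Neto1, Dip2b and C1ql3 (r = 0.990, 0.989 and 0.987), Bdkrb1 with Pcdh1, Cacna1g and Mt1 (r = 0.992, 0.992 and 0.991) and F2r with Tgfb3, Tulp4 and Mea1 (r = 0.995, 0.991 and 0.991). For Edn1 they were Pitpnc1, Ebf2 and Zfp608 (r = 0.980, 0.980 and 0.977), for Npr3 Ptp4a2, Postn and Akr1c14 (r = 0.978, 0.975 and 0.973) and for Ednra Prss35, Scp2 and Zcchc24 (r = 0.971, 0.957 and 0.952).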

How the data were processed

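RNA-seq was made from poly(A) RNA with a strand-specific kit and read as pairs of 100 bp. The authors aligned trimmed reads to mm10 with HISAT2 and GENCODE annotation (release not given in the sources used here) and ran StringTie and ballgown for abundance. The deposited values are TPM, with SMCs and PDGFR-β+ cells in separate tables and each library in its own column. DESeq2, which the study ran on counts, was not used here. TPM fixes each library's total, so a rise of abundant genes lowers the others, and it keeps no depth. Among the SMC libraries, 1 Scr and 1 siKlf4 column lack a replicate number and entered the fits by group alone.

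The tables were joined by gene ID. Values were tested as log2(TPM + 1), for genes that averaged 1 TPM or more across the 6 libraries of a cell type (in both cell types for the interaction and the baseline), with limma 3.58.1 in R 4.3.3 (eBayes with a trend, two-sided, Benjamini-Hochberg adjustment over all genes tested, threshold 0.05). The procedure was tested on simulated data. With 3 libraries against 3 the smallest exact permutation p is 0.1. The alternatives were a pseudocount of 0.1, no filter, a minimum of 5 TPM, quantile normalization, median-ratio scaling, no trend in eBayes, a single fit or separate fits, a replicate block, a term for the column naming, the numbered SMC libraries alone, and leaving out each library.

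The 8 genes and the lists were chosen with earlier results of these data known. The text names all 8 genes, up to 3 passing genes per list with the largest change in each cell type, and the 3 most correlated genes for each of the 6 genes above 1 TPM on average in both cell types. A further gene of the lists is not reported here. Klf4 was the check of the knockdown. The remaining named genes (Ece1, Ece2, Edn2, Edn3, Npr2, Adra1b and single markers) were chosen after their values were seen. Positions come from GENCODE M21 and promoter windows from RefSeq.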

Additional observations from a re-analysis of the deposited data

Results flagged for a closer look

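The effect of siKlf4 on 2 of the 8 genes differed between the cell types by the test of the difference itself. For Ednrb the log2 fold change in SMCs minus that in PDGFR-β+ cells was -2.02 (adjusted p = 4.9e-04 by limma), with lower means in SMCs and all 3 siKlf4 PDGFR-β+ libraries above all 3 Scr libraries. It stayed between -2.25 and -1.80 when each of the 12 libraries was left out. For Edn1 the difference was -0.52 (adjusted p = 0.0180), from overlapping groups in SMCs and groups without overlap in PDGFR-β+ cells. Of all genes tested for this difference, 33.0% passed.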

How the results depend on the processing

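The calls for Agtr1a in SMCs, for Ednrb and Edn1 in PDGFR-β+ cells, for the interaction of Ednrb and for the 6 baseline differences held under every alternative and left-out library that tested them. In SMCs, 4 genes passed. The number was 2 with no filter, 2 with a minimum mean of 5 TPM (4 of the 8 then tested), 2 under quantile normalization, 2 in the numbered libraries alone, and 1 to 3 with 1 library left out. Over all genes the SMC count was 3910 and fell to between 2216 and 3563 with 1 library left out, lowest without siKlf4 replicate 2. The interaction passed for 2 genes, and for 1 with a minimum of 5 TPM and under quantile normalization. The baseline passed for 6 genes, and for 3 with a minimum of 5 TPM. Median-ratio scaling changed the split of interaction calls from 43.9% to 54.7% higher. Differences that did not pass changed sign with 1 library left out for Edn1 in SMCs (-0.17 to 0.0045, the latter without the unnumbered Scr library), Npr3 in SMCs (-0.014 without Scr replicate 3 to 0.31), Ednra in PDGFR-β+ cells (-0.41 to 0.056, the latter without Scr replicate 3) and the interaction of Bdkrb1 (-0.24 to 0.016, above 0 without Scr SMC replicate 2, at 0.0077, or Scr PDGFR-β+ replicate 3). They also did for the interaction of Bdkrb1 with a pseudocount of 0.1 (0.082) and the interaction of F2r under median-ratio scaling (0.015). The cause was not tested, other than that fewer genes were tested at 5 TPM. Replicate numbers did not pair the PDGFR-β+ libraries: deviations of same-numbered libraries correlated at 0.0732, -0.0158 and 0.0043 over genes. With a replicate block 5641 genes passed in PDGFR-β+ cells against 5559 without, 3 of the 8 in both. In the 4 numbered SMC libraries, for which only the shared numbers are known, same-numbered libraries correlated at 0.107 and the others at -0.107. With 2 libraries per group the deviations mirror each other, so both values are of equal size by construction. The block left 2853 genes and 1 of the 8 in these libraries, and in the interaction 3882 genes and 1 of the 8. Depth is unknown, so precision at low TPM, as for Bdkrb2 and for Agtr1a in PDGFR-β+ cells, rests on 3 libraries per group.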
